A study of Mus musculus with 4 samples.

Results

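The 10 genes described here encode adhesion proteins of the cell surface, and their RNA was measured in bulge hair follicle stem cells (HF-SCs), the slowly cycling stem cells of the resting hair follicle. They were *Cd44*, *Epcam*, *Cadm1*, *Cadm4*, *Alcam*, *Cd200*, *Cd9*, *Cd47*, *Sdc1* and *Sdc4*. The genes were taken by name from the deposited table, and all 10 of the 10 had a mean normalized count above 0, among 17044 such genes of 24421 in all. The libraries came from mice kept at postnatal day 44 after 2 d of doxycycline chow begun at day 42, with 2 control libraries and 2 libraries from mice in which *miR-205* was switched on. Every library was bulk RNA-seq of living back skin cells that FACS had selected for high H2BGFP, α6 integrin and CD34 and for the absence of Sca1. The mice carried *Krt14-H2b-GFP*, and the strain was given as C57BL/6. The induced mice carried *pTRE2-miR-205*, a *miR-205* transgene that doxycycline turns on through the rtTA activator made under the *Krt14* promoter, and so in keratin 14 cells as a class rather than in HF-SCs alone. The labels describe the control mice as untreated, whereas the protocol has both groups fed doxycycline. The methods describe RNA-seq in general as repeated on pairs of control and inducible mice with littermate controls. They do not say how many animals went into each library, and the recovered values cannot be tied to a pair, so part of the spread between libraries may be technical.

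Adhesion molecules of the cell surface hold cells to each other and to the matrix, and their tails connect to actin. Some bind a copy of themselves on the next cell, as *Epcam* and the nectin-like *Cadm* proteins do. Others bind a matrix ligand, as the hyaluronan receptor *Cd44* does, or carry heparan sulfate chains, as the syndecans *Sdc1* and *Sdc4* do. *Cd47* and *Cd200* are signals that restrain myeloid cells, and *Cd200* is also a known surface marker of the bulge.

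What was measured sets the limits of this account. The table gives 1 mean per gene over the 4 libraries, after each library was divided by its size factor. Because that mean is a sum of whole reads weighted by 4 constants, the whole reads of each library could be worked out for 5 of the 10 genes, *Alcam*, *Cd200*, *Cadm1*, *Cd47* and *Cadm4*. For the other 5, *Sdc4*, *Cd9*, *Epcam*, *Sdc1* and *Cd44*, the means were too large for a single answer, and only the authors' mean is given. The 4 libraries recovered in this way carry no name. They are designated A, B, C and D from the deepest to the shallowest, with an estimated 16200000, 15400000, 12600000 and 9370000 reads counted to genes. Each estimate is the size factor times the sum of all gene means, not a number of sequenced reads. Which of them were induced is not known from the mean, so they were put in no group and the induced and control mice were not compared. The spread over A to D holds both groups, and an effect of induction and other differences between libraries cannot be told apart in it. Fewer cells of a type and less RNA per cell cannot be told apart in bulk RNA either.

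The sort was first checked in the RNA. *Krt15*, a keratin of the bulge, had the highest level per kb of exon of all genes, with 67049 normalized counts per kb. *Cd34*, used in the sort, stood at 5561 normalized counts per kb, percentile 99.3 of all genes. Each of the 8 bulge markers had a mean over 50 normalized counts, a level also passed by 10342 of the 17044 expressed genes. The lowest of the 8 per kb was *Tcf7l1*, with 178 normalized counts per kb. *Ly6a*, which encodes the Sca1 protein that the sort excluded, was still read, with 166 normalized counts per kb. Markers of other cells were present as well. Of 6 fibroblast markers 5 had a mean over 50, as did all 5 of the myeloid and Langerhans markers, 4 of 5 melanocyte markers, 3 of 4 sebaceous markers and all 4 suprabasal markers. None of the 3 endothelial markers did. Of 3 T cell markers, 2 were in the table, and neither did. Per kb, the median was 1184 for the bulge markers and higher, 2275, for the suprabasal markers. It was 2452 for 5 epidermal basal markers, among them *Itga6*, which encodes the α6 integrin used in the sort. For the 2 interfollicular or infundibular markers, *Ly6a* and another with 827 per kb, the median was 497. It was 364 for fibroblast, 256 for sebaceous, 159 for myeloid and Langerhans and 77.3 for melanocyte markers. For endothelial and T cell markers it was 7.58 and 5.58.

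Because *miR-205* was the induced molecule, its sequence is shown with the stretches of the adhesion genes' longest 3′UTRs that match its seed. The seed, bases 2 to 8, is in capitals in the miRNA, which RefSeq places on GRCm38.p6 at chr1:193507503-193507524 on the minus strand. Capitals in the 3′UTR stretches mark the bases that pair with it, ATGAAGG for all of bases 2 to 8 or TGAAGG for bases 2 to 7. The letters were searched on the transcript strand only, and each ATGAAGG also holds TGAAGG.
miR-205-5p: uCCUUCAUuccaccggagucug
Cadm1, 7 bases: agtataaaataATGAAGGatgtataattg
Cadm1, 6 bases: agcagtagttcTGAAGGacagaacctaa
Cd47, 7 bases: caactctctgtATGAAGGatggcagcatt
Cd44, 6 bases: ggtctctggtgTGAAGGgtctgggaagt
Alcam, 6 bases: taaaattatttTGAAGGcaatgagaaac
Sdc4, 6 bases: cttgccctttcTGAAGGcaagcctagaa

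The 7-base match of *Cadm1* lies on NCBIM37 at chr9:47661216-47661222 on the plus strand, in the last exon, exon 10 of 10, at base 2743 of a 3′UTR of 2995 bases. Its 6-base match lies upstream in the same exon, at chr9:47660183-47660188 and base 1710. Both of these *Cadm1* matches are followed by A, and both are in 2 of its 7 annotated coding transcripts. The match of *Cd47* is at chr16:49913242-49913248 on the plus strand, in exon 10 of 10, at base 2252 of 4133, also followed by A. It belongs to 1 of 3 coding transcripts, and an annotated pseudogene of the same name overlaps that 3′UTR further on.

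The 6-base match of *Cd44* is on the minus strand at chr2:102651519-102651524 in exon 19 of 19, at base 2766 of 2992, and is carried by 6 of 13 coding transcripts. That of *Alcam* is on the minus strand at chr16:52250299-52250304 in exon 16 of 16, at base 1480 of 2675, in 1 of 5 coding transcripts. That of *Sdc4* is on the minus strand at chr2:164251300-164251305 in exon 5 of 5, at base 281 of 1839, in its 1 coding transcript. No TGAAGG was found in the longest 3′UTR of *Epcam*, *Cd9*, *Sdc1*, *Cd200* or *Cadm4*.

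Such matches are more frequent in longer 3′UTRs, so the counts are given for all 10 genes and by length of the 3′UTR. The median 3′UTR had 1873.5 bases in the 10 genes and 1088 in all expressed genes with a 3′UTR. ATGAAGG was in 2 of the 10 genes, or 20%, against 11.7% of 15198 expressed genes. Among the 4 of the 10 whose 3′UTR has 2000 to 4200 bases, *Cd47*, *Cadm1*, *Cd44* and *Alcam*, it was in 2, or 50%, against 22.5% of 3328 genes in that range. TGAAGG was in 5 of 10, or 50%, against 36.5% of all these genes, and in 4 of the 4 with long 3′UTRs against 64.5% of genes in that range. In the 3 genes with 1000 to 2000 bases, ATGAAGG was in 0 against 12.2%, and TGAAGG in 1 against 41.7%. In the 3 with 300 to 1000 bases, each was in 0, against 5.01% for ATGAAGG and 20.6% for TGAAGG. With so few genes, these shares are given as counts and carry no test. A match of letters is a description and does not show that the miRNA binds there.

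The 10 genes spanned a 352-fold range of levels, compared between genes per kb of exon. Their median was 1176 normalized counts per kb, against 39.6 over the 16257 expressed genes that have a length. Of the 10, 7 stood above the 90th percentile of all genes, and *Cadm4* alone stood below the median.

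**Figure D1:**
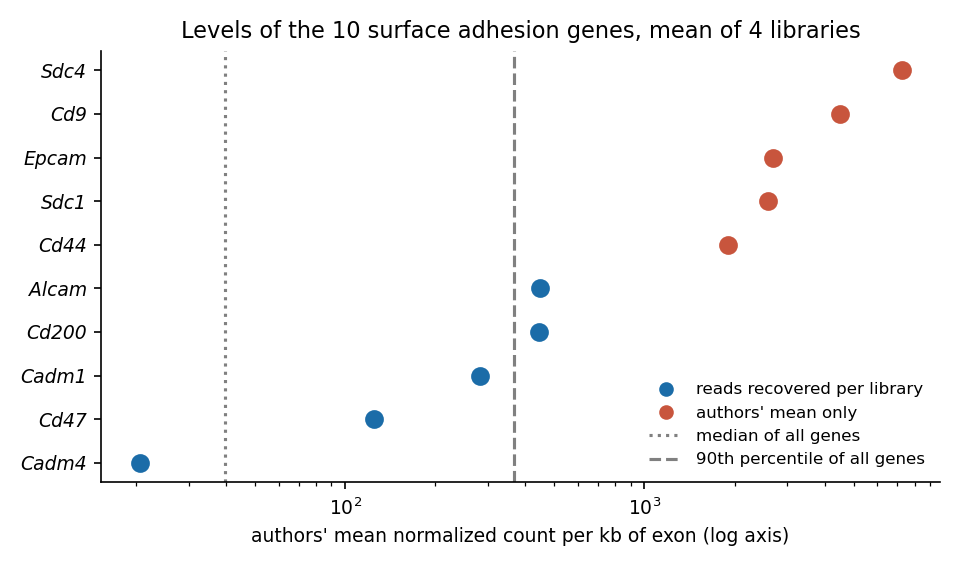
Each point is the authors' mean normalized count per kb of exon over the 4 libraries, on a log axis, for 1 gene, and vertical lines mark the median and the 90th percentile of all expressed genes. *Sdc4* is highest at 7230 and *Cadm4* lowest at 20.6, and *Alcam* and *Cd200* lie side by side at 447 and 444.

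The proteoglycans and the hyaluronan receptor, which face the matrix, were all high. *Sdc4*, a heparan sulfate proteoglycan that sits at focal adhesions, had the highest level, 7230 normalized counts per kb (authors' mean 18415 normalized counts), at percentile 99.5. Its relative *Sdc1*, the main syndecan of epithelia, had 2584 per kb (authors' mean 9842). *Cd44*, the hyaluronan receptor, had 1905 per kb (authors' mean 13051), at percentile 98.2. Without regard to length *Cd44* was second to *Sdc4* among the 10, since its exons together cover 6851 bases.

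Among the proteins that work within one membrane or bind a copy of themselves, *Cd9* and *Epcam* were high. *Cd9*, a tetraspanin that gathers partner proteins in the membrane, had 4496 normalized counts per kb (authors' mean 9189). *Epcam*, a homophilic epithelial molecule that binds claudins, had 2683 per kb (authors' mean 5473), at percentile 98.7. *Epcam* and *Sdc1* differed by a factor of 1.04 in the mean per kb, and since neither has values per library their order cannot be set against a spread. With coding length in place of exon length, *Sdc1* stood above *Epcam*.

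The immunoglobulin-type proteins were lower. *Alcam*, a homophilic molecule that also binds CD6 of T cells, had 447 normalized counts per kb, and *Cd200* had 444. *Cadm1*, a nectin-like homophilic molecule, had 283 per kb, at percentile 86.8. *Cd47* followed with 125, at percentile 72.8. *Cadm4*, which binds other *Cadm* proteins across the gap between cells, had 20.6 per kb, at percentile 40.2 of all expressed genes but 8.35 of those with a mean over 50, so that *Cadm1* stood 13.8-fold above it per kb.

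Where reads were recovered, this order was compared within each library. *Cd200* was above *Cadm1* per kb in 4 of 4 libraries, by 1.35-fold to 1.69-fold. With coding length this order turned, and *Cadm1* ranked 6 of the 10 against 7 for *Alcam* and 8 for *Cd200*. *Cadm1* was above *Cd47* in 4 of 4, by 2.21-fold to 2.34-fold, and *Cd47* above *Cadm4* in 4 of 4, by 4.34-fold to 7.81-fold. *Alcam* and *Cd200* did not separate: *Alcam* was the higher in 1 of 4 libraries, and their ratio ran from 0.964 to 1.1.

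The values in each library follow, as normalized counts, that is whole reads divided by the size factor of the library. Their 95% intervals are exact Poisson intervals and cover counting error only, not differences between mice or preparations. *Cadm1* had 3032 normalized counts in A, 2519 in B, 2238 in C and 3219 in D, from 3749, 2970, 2163 and 2306 reads. D and A were high and C was low, and the interval of D, 3089 to 3353, lay above that of C, 2145 to 2335. *Cd47* had 702 normalized counts in A, 615 in B, 548 in C and 764 in D, from 868, 725, 530 and 547 reads. The order of the libraries was that of *Cadm1*, although the intervals of libraries next to each other in this order overlapped. Those of D (701 to 830) and C (503 to 597) were apart.

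*Cd200* had 1401 normalized counts in A, 1378 in B, 1266 in C and 1854 in D. A, B and C lay close together with D above them, and its interval of 1755 to 1956 did not reach that of any other library. *Alcam* had 2994 normalized counts in A, 3235 in B, 2667 in C and 3832 in D. Again D was highest and C lowest, although here B was above A. *Cadm4* had 51.8 normalized counts in A, 32.2 in B, 51.7 in C and 41.9 in D, from 64, 38, 50 and 30 reads. At this depth the intervals were wide, and those of the highest and the lowest library overlapped, 39.9 to 66.1 and 22.8 to 44.3. Such an overlap is not a test, and a difference between its libraries was not tested.

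**Figure D2:**
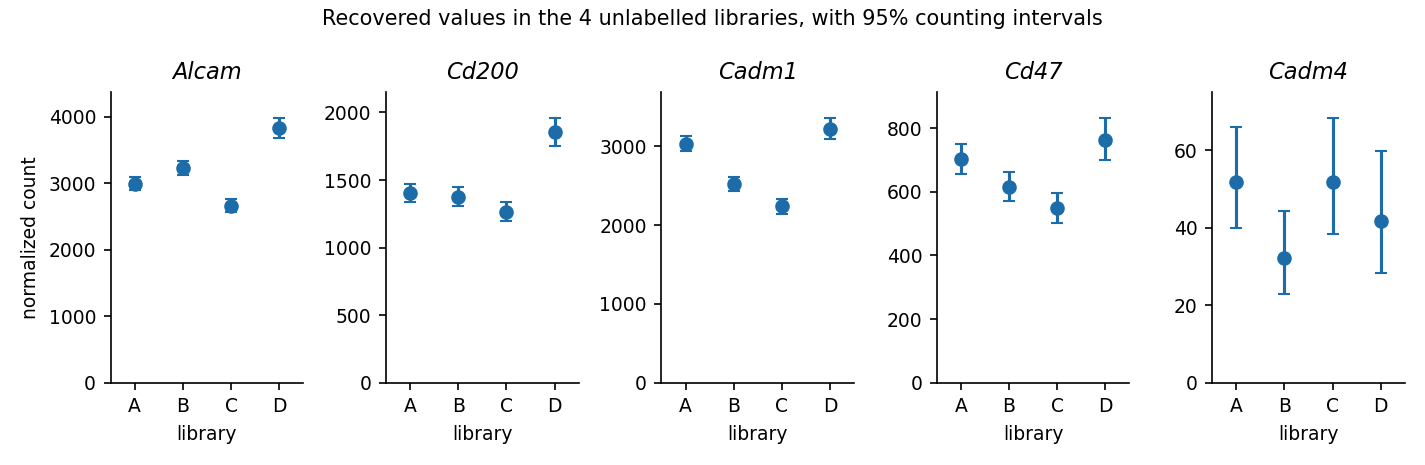
Points are normalized counts in the 4 unlabelled libraries A to D, bars are exact 95% Poisson intervals of counting error, and each vertical axis starts at 0. Library D is highest and C lowest in *Alcam*, *Cd200*, *Cadm1* and *Cd47*, from 3832 to 2667 in *Alcam*, and the intervals of *Cadm4* overlap.

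The answer for reads is less firm for the more abundant genes. The number of wrong whole-read answers that a search of this size would give by its size alone was 0.0018 for *Cd47*, 0.053 for *Cd200*, 0.345 for *Cadm1* and 0.533 for *Alcam*. A single answer was found for each within 1.5-fold of the mean, or 2-fold for *Cd47*, so the values of *Cadm1* and *Alcam* hold only if no library lay outside that range.

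Reads of *Cd47* and *Cadm1* kept a nearly fixed proportion from library to library. For each read of *Cadm1* there were 0.232 reads of *Cd47* in A, 0.244 in B, 0.245 in C and 0.237 in D, although the level of each changed by more. How often other pairs of genes keep such a proportion was not examined. *Cd200* gave 0.462 reads per read of *Cadm1* in A and 0.547 to 0.576 in the others. *Alcam* varied more, with 0.987 in A, 1.28 in B and 1.19 in both C and D. On NCBIM37, *Alcam*, *Cd200* and *Cd47* lie within a stretch of 7.07 Mb on chromosome 16, and *Cadm1* lies on chromosome 9. A tie between these places and the proportions was not tested.

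The difference between the highest and the lowest library was moderate. It was 1.44-fold in *Cadm1* and *Alcam*, 1.46-fold in *Cd200* and 1.39-fold in *Cd47*. Among 3400 genes with a mean of 300 to 1000 normalized counts, the median was 1.24-fold, the 75th percentile 1.34-fold, and the 90th percentile was 1.51-fold. The ratios of the 4 genes stood at percentiles 80.9 to 87.2 of that class, although it holds only *Cd47* of the 4 by its mean. Against genes with a mean of 1000 or more, the class of *Cd200*, *Cadm1* and *Alcam*, those 3 stood at percentiles 82.6 to 84.9. That class holds only the 1645 of 2453 genes with recovered reads. The search there admitted only libraries within 1.5-fold of the mean, so wider spreads are left out. Against all genes with a mean over 10, whose counting error is larger, the 4 stood at 54.8 to 62.1, and against those with a mean over 50 at 66 to 74. *Cadm4* had a ratio of 1.61, below the median of 1.78 over 1195 genes with a mean of 30 to 60, where counting error is large.

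**Figure D3:**
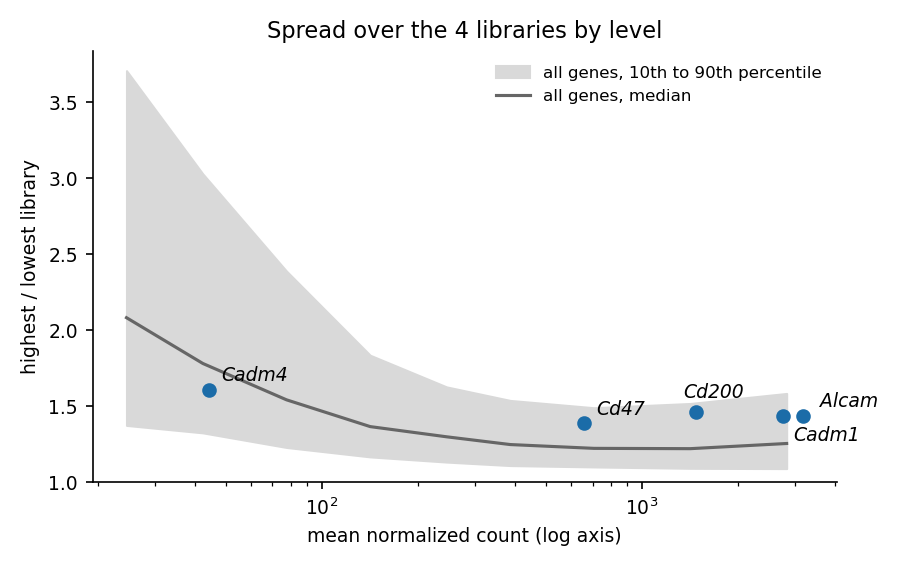
The ratio of the highest to the lowest of the 4 libraries is plotted against the mean normalized count on a log axis, with the band from the 10th to the 90th percentile and the median of all genes with recovered reads. *Cd47*, *Cd200*, *Cadm1* and *Alcam*, at 1.39 to 1.46, lie between the median and the upper edge, and *Cadm4* at 1.61 lies below the median of its class.

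Of the 5 genes with reads, 4 were highest in D and lowest in C, and this was so of 7.97% of the 3400 genes, with 5.03% in the full order D, A, B, C that *Cadm1* and *Cd47* had. This pattern was singled out after the values were seen, so setting these shares side by side is no test. By its mean, only *Cd47* of the 4 belongs to the class of the 3400. The intervals of D and A overlapped in both *Cadm1* and *Cd47*. In *Cd47* those of A and B and of B and C overlapped too, so counting error leaves the full order of both genes unsettled. *Cd200* had the order D, A, B, C with the authors' size factors, but its A and B were within counting error of each other and changed places under both other scalings. Many markers of other cells ran the other way between the same libraries. Of the 21 such markers with recovered reads, 14 were highest in C, 13 were lowest in D and 11 were both. Of the 3400 genes, 22.6% were highest in C, 20.6% lowest in D and 7.29% both. Most of the 21 had a mean under 300, where counting error is larger than in that class. The summed level of 4 of 5 melanocyte markers was 518 normalized counts in A, 363 in B, 1077 in C and 197 in D. *Ly6a* had 146 in A, 159 in B, 179 in C and 60.03 in D. The sum of 2 of 3 endothelial markers ran from 33.5 in D to 77.6 in C, and that of 4 of 5 myeloid and Langerhans markers from 659 in D to 1293 in B. The sum of 4 of 6 fibroblast markers ran from 3776 in A to 4656 in C, most of it *Col3a1*, with 2737 in A to 3849 in B. *Dcn* and *Lum*, also fibroblast markers, were lowest in D, with ratios of highest to lowest of 1.84 and 2.02. Markers of suprabasal cells, 1 of 4 recovered, ran from 395 in B to 710 in C. Those of sebaceous cells, 2 of 4, ran from 306 in D to 624 in A. The 2 T cell markers summed to 12.1 in A, 12.7 in B, 14.5 in C and 18.2 in D. The part of these cells in the values of *Alcam*, *Cd200*, *Cadm1* and *Cd47* was not tested. Of the bulge markers 1 of 8, *Tcf7l1*, had recovered reads, with 518 in A, 569 in B, 604 in C and 670 in D.

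**Figure D4:**
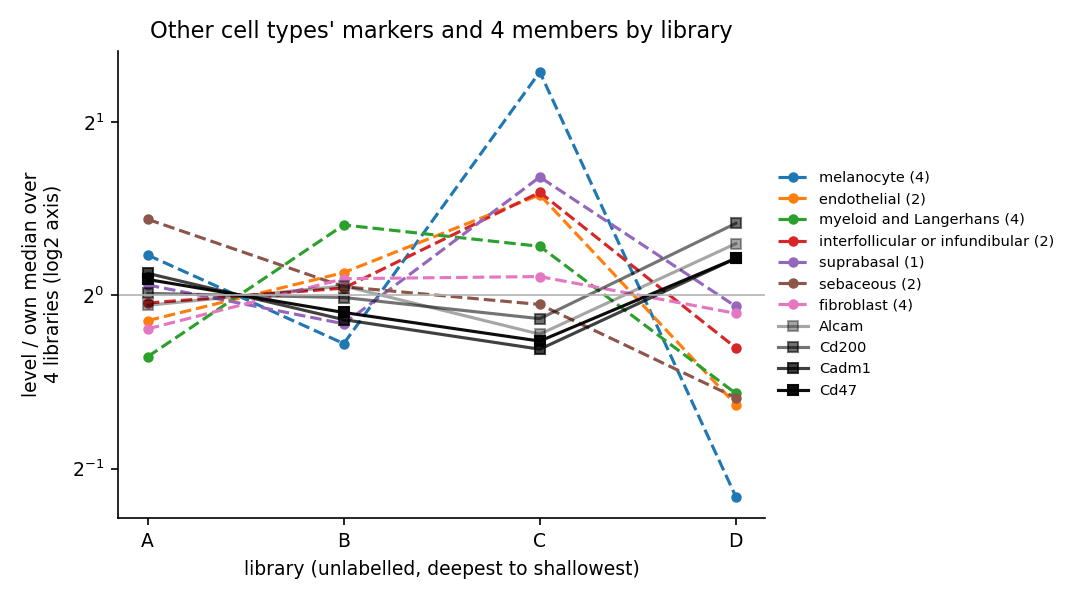
Each line gives the level in the 4 unlabelled libraries divided by its own median over them, on a log2 axis, for *Alcam*, *Cd200*, *Cadm1* and *Cd47* (squares, normalized counts) and for sums of the marker genes with recovered reads (circles, number of genes in brackets). Melanocyte markers peak in C at 1077 normalized counts and are lowest in D at 197, where the 4 adhesion genes are highest. Endothelial and interfollicular or infundibular markers also peak in C and are lowest in D. Sebaceous markers peak in A and myeloid and Langerhans markers in B, while fibroblast markers are lowest in A and suprabasal ones in B. The T cell markers and the bulge marker *Tcf7l1*, both highest in D, are not drawn.

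The molecules that these proteins bind were examined next, through 36 listed partners, all of them with a mean above 0. Their median level was 121 normalized counts per kb, and 24 of them stood above the median of all genes. The 20 highest are given with values.

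For *Cd44*, the ligand machinery and the actin linkers were both present. *Has2*, which makes hyaluronan, had 551 normalized counts per kb, and its normalized counts were 2703 in A, 2038 in B, 2333 in C and 2271 in D. *Has1* and *Has3*, the other hyaluronan synthases, *Spp1*, which encodes the ligand osteopontin, and *Hmmr* were lower and fell outside the 20. The linkers of the *Cd44* tail to actin were higher, with 3385 per kb for *Ezr*, 1105 for *Msn* and 622 for *Rdx*. *Rdx* had 3121 normalized counts in A, 2989 in B, 2650 in C and 3276 in D, and was the 1 partner of 29 with recovered reads that was highest in D and lowest in C.

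For *Epcam*, the claudin *Cldn1*, a tight junction protein, had 2485 normalized counts per kb, near *Epcam* at 2683. *Cldn7*, the claudin best known to bind *Epcam*, had a mean of 50 or less.

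For *Cadm1* and *Cadm4*, the related nectins *Nectin2* and *Nectin1* had 312 and 262 normalized counts per kb, close to the 283 of *Cadm1*. *Nectin1* had 1524 normalized counts in A, 1138 in B, 1164 in C and 1463 in D, and *Nectin2* ran from 956 in B to 1202 in C. Of the 5 scaffolds listed for the *Cadm1* tail 1 was among the 20, *Epb41*, with 80.9 normalized counts per kb, and its normalized counts were 700 in A, 754 in B, 766 in C and 730 in D. *L1cam*, another immunoglobulin-type adhesion protein, had 89.3 per kb.

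For *Cd9*, the tetraspanins *Cd63*, *Cd151*, *Cd81* and *Cd82* had 2654, 1097, 586 and 244 normalized counts per kb, all below the 4496 of *Cd9*. Its partners *Igsf8* and *Ptgfrn* had 223 and 158. *Cd81* was steady, with 1375 normalized counts in A, 1243 in B, 1325 in C and 1382 in D, a ratio of 1.11.

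For the syndecans, *Sdc2* and *Sdc3* had 173 and 166 normalized counts per kb, far below *Sdc4* and *Sdc1*, and the scaffold *Sdcbp* (syntenin) had 649. *Sdc2* had a highest-to-lowest ratio of 1.19 and *Sdc3* one of 1.24.

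For *Cd47*, the matrix ligand *Thbs1* (thrombospondin 1) stood at percentile 99.9 per kb, the highest of the 36 partners, and the receptor *Sirpa* had 152 normalized counts per kb, at percentile 76.3. *Sirpa* had 771 normalized counts in A, 688 in B, 708 in C and 811 in D. *Cd200r1* and *Cd6*, the leukocyte receptors of *Cd200* and *Alcam*, had means of 50 or less, as had 6 other partners, *Cadm2*, *Nectin3*, *Cldn7*, *Spp1*, *Hmmr* and *Mpp3*.

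**Figure D5:**
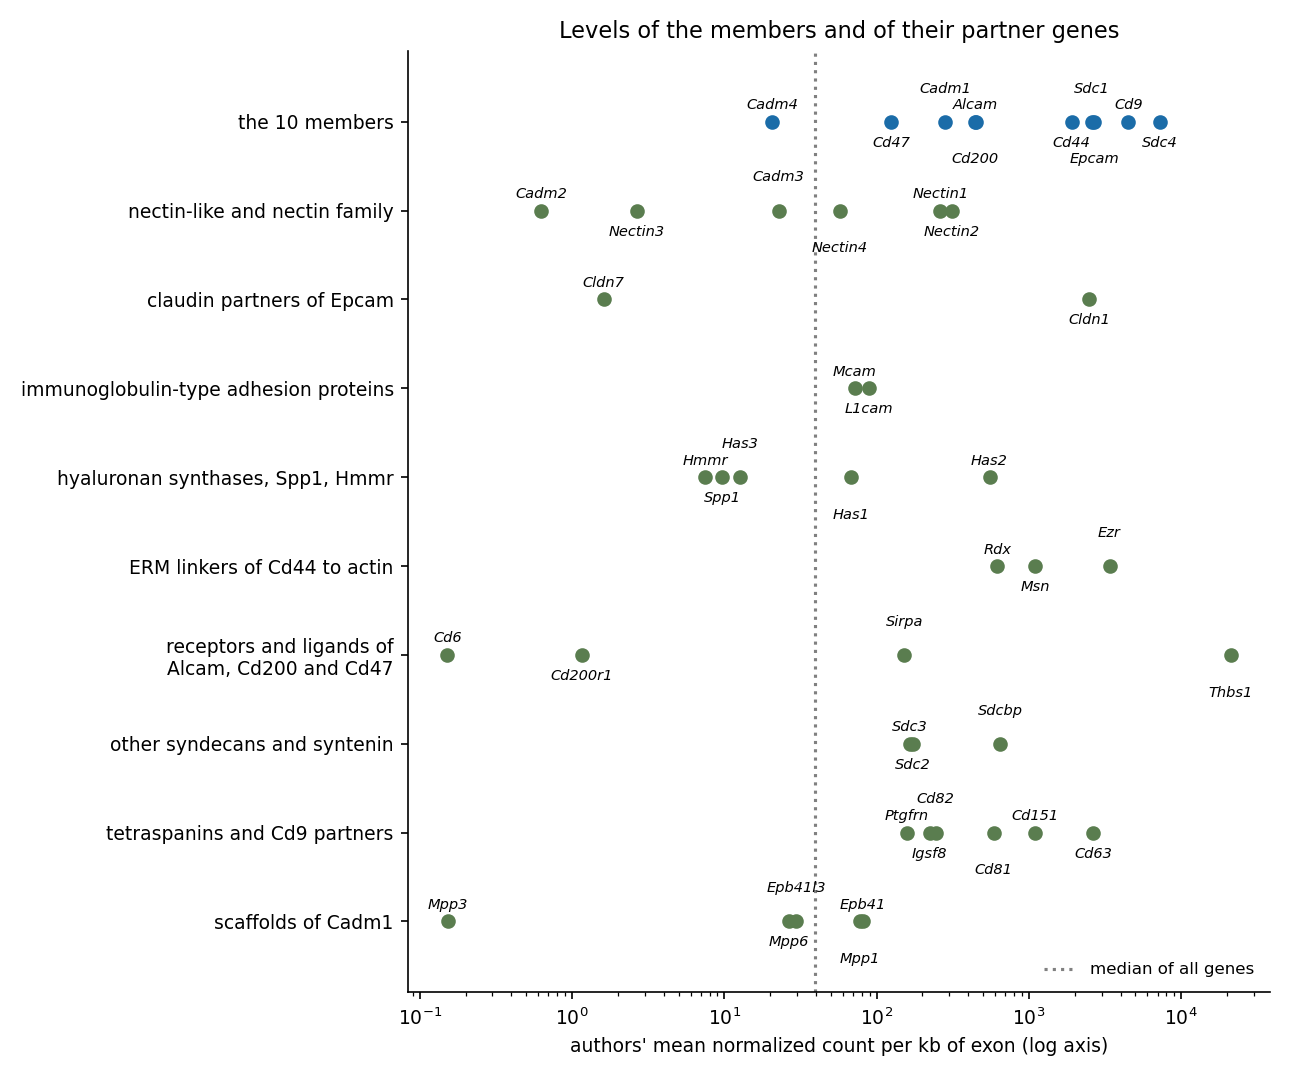
Points give the authors' mean normalized count per kb of exon, on a log axis, for the 10 adhesion genes (top row) and for 36 partners in rows by role, with the median of all expressed genes as a dotted line. *Thbs1* lies at the far right, and *Cd6*, *Mpp3*, *Cadm2* and *Cd200r1* lie at the far left.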

How the data were processed

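The authors made directional libraries (NEBNext Ultra) and sequenced them on an Illumina NovaSeq. Their processing notes name HISAT2 2.1.0 for alignment to mm10, SAMtools 1.3.1 and HTSeq for counting. For the comparison, the authors ran DESeq2 with its defaults. Neither the annotation nor the version of that last tool is given in the sources used here. The deposited signal used here is the authors' mean over 4 libraries of counts divided by size factors. The other 5 columns hold the authors' own comparison (fold change, its error, statistic, p-value and adjusted p) and were not used, so induced and control libraries were not compared and no test was run.

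Genes with 1 read in 1 library gave 4 steps, and with them size factors of 1.24, 1.18, 0.966 and 0.716. Each mean was searched for whole reads per library that sum to it, over all values under a mean of 20, within 4-fold of the mean under 300, within 2-fold under 1000 and within 1.5-fold above. A mean was accepted where the search left 1 answer and expected at most 1 accidental one, with a tolerance of 1.3 times the rounding error of its last printed digit. These settings were chosen after seeing the data. Reads were recovered for 16182 of 17044 genes, and median-of-ratios size factors recomputed from 13242 of them were 1.23, 1.19, 0.970 and 0.713. The steps were tested on simulated data with a modest spread between libraries, so libraries outside these windows were hardly tested.

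Lengths, places and 3′UTRs came from GENCODE vM1 on NCBIM37, and no coordinate was converted. Of the table's genes 22113 matched by symbol or by RefSeq synonym. The named genes are the 10 members, the 20 partners with the highest level per kb and the sort markers. *Krt15*, *Tcf7l1*, *Col3a1*, *Dcn*, *Lum* and the genes named without a value were chosen after their values were seen. One listed partner, withheld for evaluation, is not reported here. The members and lists were chosen with earlier results of these data known. Alternatives concerned gene length, the genes ranked, scaling, a pseudocount, each library left out and the search. Intervals and tables were computed with scipy 1.17.1, pandas 2.3.3 and numpy 2.4.6 under Python 3.11.15, and figures with matplotlib 3.10.9.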

Additional observations from a re-analysis of the deposited data

How the results depend on the processing

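The order of the 10 levels depended on length: with coding length 5 of the 10 genes kept their place, and with no length 4 did, while *Sdc4* was first and *Cadm4* last in both. Against genes with a mean over 10 or over 50, 5 rather than 7 of the 10 stood above the 90th percentile. *Cadm4* moved from percentile 40.2 to 22.2 and 8.35, and *Cd47* from 72.8 to 64.4 and 56.9. *Alcam*, *Cd200*, *Cadm1* and *Cd47* were highest in library D also when libraries were scaled by their sum of recovered reads and with upper quartile scaling, while A and B of *Cd200* changed places, from 1401 and 1378 to 1342 and 1416 and to 1379 and 1391. The ratio of highest to lowest library with each library left out in turn ran from 1.28 to 1.44 in *Cadm1*, 1.21 to 1.44 in *Alcam*, 1.11 to 1.46 in *Cd200*, 1.24 to 1.39 in *Cd47* and 1.24 to 1.61 in *Cadm4*. The value of 1.11 in *Cd200* was without D. A tolerance 10 times wider left reads for 2 of the 10 genes, *Cd47* and *Cadm4*, and a window 1.5 times wider for 3, adding *Cd200*. A limit of 0.5 accidental answers, chosen after seeing the data, kept 4 and lost *Alcam*. No gene recovered under these settings had other reads than before. That result was fixed in advance and is no check of the reads. Each wider search holds the first answer, and the lower limit only drops genes. No paired analysis was possible because the recovered libraries carry no replicate number. Depth limits *Cadm4*, with 30 to 64 reads.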
